A study of Rattus norvegicus with 8 samples.

Results

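The blood transcriptome of AngII-infused rats after administration of Chios mastic gum (CMG, the resin of Pistacia lentiscus var. Chia) was compared with that of AngII-infused rats before it, over all genes with enough counts. The comparison rests on 4 of the 8 RNA-seq libraries of the series, which are the 2 libraries before and the 2 after CMG in the AngII model. All 4 came from whole blood of male wild type Wistar rats, 12 to 14 weeks old at the start, which received AngII at 0.4 mg/kg/day from an osmotic minipump. The methods give blood draws at baseline and at weeks 1 and 5 of the infusion, and the labels say only before or after treatment. The libraries before CMG were taken as those of week 1. Those after CMG were taken as week 5, when CMG had been given at 220 mg/kg for 4 weeks. The pumps were rated for 4 weeks, so week 5 lay past their rated run. No library of saline-treated rats was analysed here. The effects of CMG, of 4 further weeks in the model and of the end of the rated infusion thus cannot be told apart. The methods also give pentobarbital at the endpoint of week 5, without saying whether the blood was drawn before it. Neither the labels nor the methods state that the libraries of a group came from separate rats, so every p-value measures the spread between these libraries, which may be technical. The other 4 libraries were of the DOCA–HS model (100 mg/kg deoxycorticosterone acetate, and drinking water with 0.9% NaCl and 1% KCl). The libraries before CMG were likewise taken as week 3 and those after it, at 220 mg/kg, as week 7, and they serve below for comparison.

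Angiotensin II is the peptide hormone of the renin–angiotensin system that constricts vessels and raises blood pressure, and leukocytes carry receptors for the cytokines, microbial molecules and chemokines of the inflammation that accompanies its infusion. RNA of whole blood is mostly that of erythroid cells, with neutrophils, monocytes and lymphocytes as the source of the immune transcripts. When a leukocyte is stimulated, immediate early genes such as Egr1, Fosb and Jun are transcribed within minutes. NF-kB and STAT proteins switch on genes that inhibit the same pathways, among them Nfkbia, Socs1 and Socs3. Transcripts of these groups are short-lived and are read as a sign of ongoing signalling.

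The total counts were 13205565 and 7628236 in the libraries before CMG and 6804001 and 9940689 in those after it. From 66.0% to 69.9% of the counts lay on the hemoglobin genes Hbb and LOC100134871, which left 2195735 to 4490083 counts for the other genes. Levels are given as normalized CPM (counts scaled to library size and by the TMM factor of edgeR), in which a single count was worth 0.0727 to 0.162, and always in the order of replicates 1 and 2. The TMM factor of after replicate 2 was 1.38, against 0.811 to 0.968 in the other 3 libraries. In this library erythroid transcripts and platelet transcripts were lower than in after replicate 1, as given below with the genes it touches.

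Defining markers of the blood cell types were present in each library. Those of cytotoxic lymphocytes (Gzma, Prf1, Nkg7, Klrd1 and Tbx21) summed to 30.5 and 30.9 CPM before CMG and to 69.3 and 59.7 after it, and 3 of the 5 rose at an unadjusted p of at most 0.05. The 5 monocyte markers summed to 407 and 383 CPM before and to 499 and 495 after CMG. The T cell markers summed to 123 and 119 CPM before and to 94.5 and 106 after CMG, although 1 of the 5, Cd4, went from 27.0 and 13.9 CPM to 34.3 and 27.2. The groups overlapped for neutrophils, with 228 and 214 CPM before and 222 and 196 after CMG, and for B cells, with 39.8 and 59.7 CPM before and 43.9 and 75.9 after it. Erythroid markers summed to 488381 and 618121 CPM before and to 539210 and 342804 after CMG, so that after replicate 2 stood below the other 3 libraries. Platelet markers varied most, with sums of 481 and 143 CPM before and 434 and 47.6 after CMG, so that libraries of a group differed more than the groups did. Of the heart muscle markers, 4 of 5 (Myh6, Tnni3, Actc1 and Nppa) had no count in any of the 4 libraries, and the hepatocyte markers summed to 0 CPM before and to 0.319 and 0.582 after CMG. In bulk blood, a change in the number of cells of a type and a change of RNA per cell cannot be told apart.

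**Figure D1:**
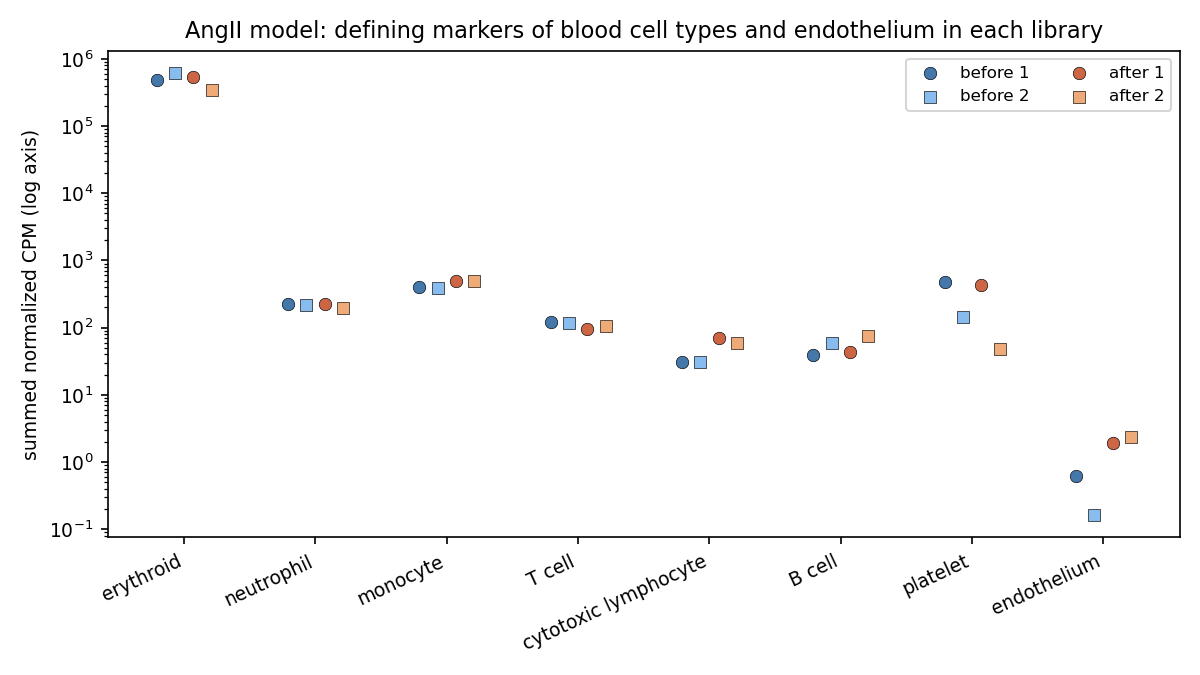
Summed normalized CPM (log axis) of the defining markers of 7 blood cell types and of endothelium in each of the 4 AngII libraries. The cytotoxic lymphocyte markers lay at 59.7 and 69.3 CPM after CMG against 30.5 and 30.9 before it, while the platelet markers differed more within a group than between the groups.

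Of 17446 genes in the count table, 7201 had enough counts to be tested. The criterion of the study was used for calls: a log2 fold change above 1.5 (upregulated) or under −1.5 (downregulated), with a p-value, before adjustment, of no more than 0.05. Changes are given on the log2 scale with the standard error (SE) of the fit, and "rose" or "fell" is said of a gene that passed this p-value alone or with the fold. After CMG, 65 genes were upregulated (0.903% of those tested) and 24 downregulated (0.333%), which depended on the setting. Scaling to total counts gave 210 and 12, at least 10 counts in every library 11 and 11, and leaving out after replicate 1 98 and 305. At an unadjusted p of at most 0.05 alone, 363 genes rose (5.04%) and 116 fell (1.61%). No gene reached an adjusted p under 0.05 in this edgeR fit, where the lowest was 0.474, nor in limma-voom. In edgeR, 51 genes did without the filter on low counts, 4 with scaling to total counts, and 1 to 281 with 1 library left out, the most without after replicate 1. DESeq2 called 3 genes at that threshold, Egr1, Txnip and S1pr1, all lower after CMG. Both after libraries lay above both before libraries in 1593 genes (22.1%) and below them in 1265 (17.6%).

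The upregulated and the downregulated genes differed in abundance. Upregulated genes had a median of 17.2 counts per library (7 to 84.2), with 11 of the 65 under a mean of 10 counts. Downregulated genes had a median of 47.4 counts (9 to 2795), and 2 of the 24 were under 10. In the fits with 1 library left out, the change of each upregulated gene that was still tested stayed above 0, and that of 59 of the 65 above 1 on the log2 scale. That of each downregulated gene still tested stayed below 0, and that of 19 of the 24 below −1. Without after replicate 2, 57 of the 65 were tested, and without before replicate 1, 23 of the 24. The other such fits tested all of them. The groups overlapped in only 2 called genes, Mff, whose change of 2.06 was 0.28 without after replicate 2, and Rplp2. Where the groups do not overlap, leaving out 1 library can hardly turn the sign, so the kept signs are no test of the changes.

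The change also moved with the level of a gene. The median log2 fold change was 0.08 over the 5047 genes with a mean level of 1 to 10 CPM, −0.16 over the 1761 genes at 10 to 100 CPM and −0.40 over the 309 genes above 100 CPM, of which 2.91% were above 0. Among the last, the median was −0.03 and −0.13 for after replicate 1 against each before library, and −0.70 and −0.89 for after replicate 2. When the libraries were scaled to their total counts in place of TMM, the median of all genes moved from −0.01 to 0.36, and that of genes above 100 CPM to −0.10.

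**Figure D2:**
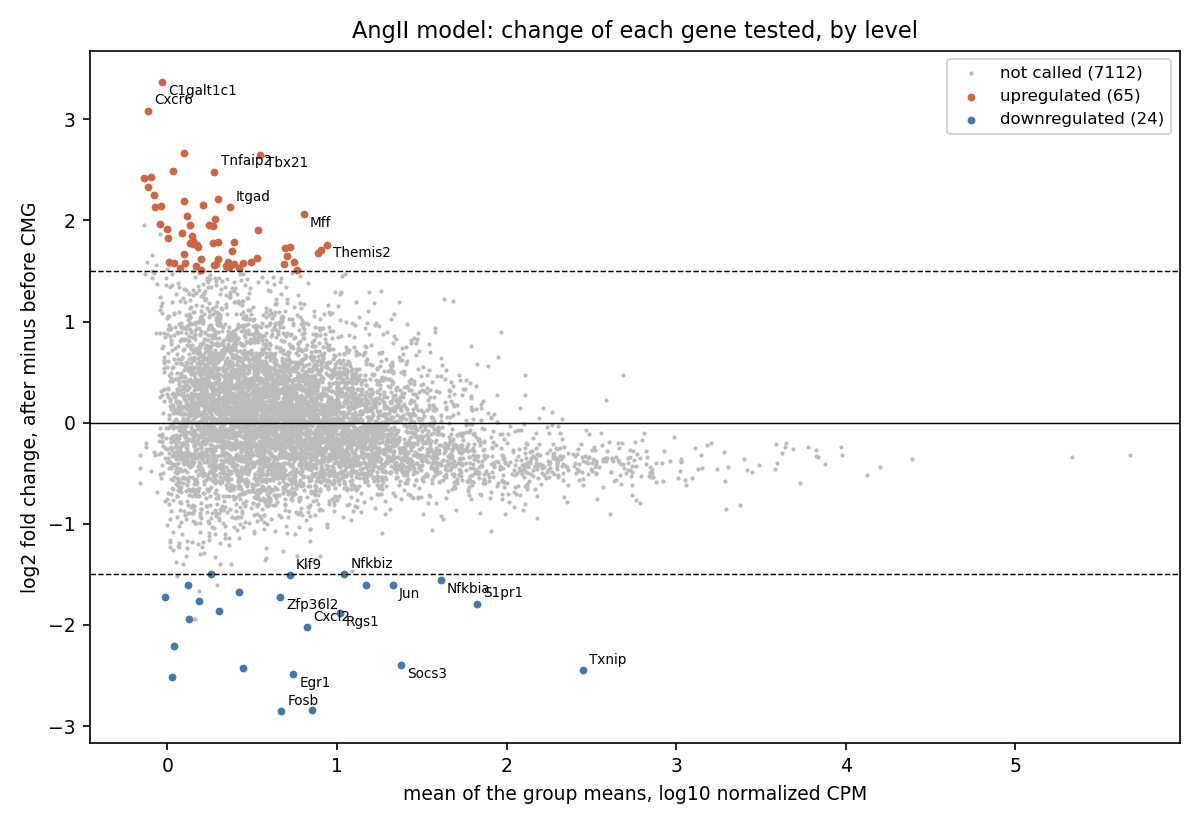
Log2 fold change after minus before CMG of each of the 7201 genes tested (vertical axis) against its mean level as log10 normalized CPM (horizontal axis), with upregulated genes in orange, downregulated genes in blue and the thresholds of 1.5 as dashed lines. The 65 upregulated genes sit at low levels, Txnip is the most abundant called gene, and the cloud of genes above 100 CPM lies below 0 with a median of −0.40.

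Of the 24 downregulated genes, 16 were members of the gene lists. With scaling to total counts all 24 stayed below 0, but only 11 were still called. Those that then missed the fold threshold included Jun (−1.29), Nfkbia (−1.17), Nfkbiz (−1.19), S1pr1 (−1.35), Cd69 (−1.18) and Klf9 (−1.15). The list of immediate early genes held 36 tested members. Of these, 5 were downregulated (Egr1, Rgs1, Jun, Atf3 and Fosb, against 0.333% of all genes) and 1, Dusp6, was upregulated (0.903% of all genes). In all, 11 fell at an unadjusted p of at most 0.05 (1.61% of all genes). The list had a median log2 fold change of −0.57, against −0.01 over all genes, and of −0.89 to −0.49 with 1 library left out. Egr1, a zinc finger transcription factor, was at 8.37 and 10.5 CPM before and at 1.44 and 1.82 CPM after CMG. It was thus about as low in both after libraries and had the smallest p of all genes tested (log2 fold change −2.49 ± 0.33, edgeR adjusted p = 0.474). Jun, a subunit of the AP-1 transcription factor, was at 26.3 and 37.8 CPM before and at 13.7 and 7.49 after CMG (−1.61 ± 0.39). Atf3, a repressor of the ATF family, was at 1.41 and 2.26 CPM before and at 0.319 and 0.291 after CMG, which are 18, 14, 2 and 4 counts (−2.51 ± 0.68).

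For Fosb, another AP-1 subunit, the change rested on 1 library. Its levels were 1.64 and 14.9 CPM before and 1.28 and 0.946 after CMG, a log2 fold change of −2.85 ± 0.94 that was −0.62 without before replicate 2. Rgs1, which shortens chemokine receptor signalling through G proteins, was at 16.7 and 15.7 CPM before and at 6.38 and 2.69 after CMG (−1.89 ± 0.42). Further members fell by less than the fold threshold. Rhob, a small GTPase, went from 23.5 and 26.7 CPM to 11.5 and 12.1 (−1.09 ± 0.29), and Dusp2, a phosphatase of MAP kinases, from 10.6 and 8.08 CPM to 4.63 and 4.44 (−1.05 ± 0.30).

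Several of the most abundant immediate early genes did not pass the test. Fos was at 27.7 and 35.4 CPM before and at 34.6 and 20.1 after CMG, with overlapping groups. Nr4a1 lay at 26.7 and 31.8 CPM before and at 32.9 and 22 after CMG, and Dusp1 at 116 and 99.9 before and at 181 and 117 after it. Ier2 was at 29.5 and 48.0 CPM before and at 34.8 and 29.1 after CMG. Dusp6, which dephosphorylates ERK, went the other way, from 5.08 and 1.94 CPM to 12.9 and 10.8 (1.68 ± 0.43, and 2.56 without before replicate 1). These were added as a contrast after their values were seen. Over the whole list, 5 of the 36 members were above 0, and in 20 both after libraries lay below both before libraries, against 17.6% of all genes.

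Regulators of NF-kB and of cytokine receptor signalling were the next group. Nfkbia, which encodes IkBa and holds NF-kB in the cytoplasm, was at 63.4 and 58.7 CPM before and at 19.5 and 21.9 after CMG (−1.56 ± 0.31). Nfkbiz, a nuclear IkB protein, was at 19.2 and 13.3 CPM before and at 7.18 and 4.51 after CMG (−1.5 ± 0.36). These were the 2 downregulated genes among 20 tested members of the list of NF-kB subunits and feedback genes (0.333% of all genes), whose median was 0.25, and 0.067 without after replicate 2. Nfkb1 itself lay at 23.6 and 21.0 CPM before and at 24.1 and 29.2 after CMG, Rela at 13.8 and 13.4 and at 14.4 and 16.5, and Birc3, an inhibitor of cell death, rose from 3.13 and 2.91 CPM to 5.75 and 6.33 (0.996 ± 0.30).

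Among the suppressors of cytokine signalling, Socs1 and Socs3 were downregulated (0.333% of all genes), while Bcl6, Pias1 and Pim2 rose at an unadjusted p of at most 0.05 (5.04% of all genes), among 13 members tested. The change of Pias1, 1.05, was 1.58 without before replicate 1 and 0.70 without before replicate 2, and that of Pim2, 0.98, was 0.64 without before replicate 1 and 0.33 without after replicate 2. Socs1, which inhibits the JAK kinases of interferon receptors, was at 4.93 and 4.53 CPM before and at 0.638 and 1.02 after CMG (−2.42 ± 0.40). Socs3, which acts on receptors of the IL-6 and G-CSF type, was at 60.9 and 19.4 CPM before and at 10.2 and 5.31 after CMG (−2.40 ± 0.58). The before libraries of Socs3 differed about as much from each other as the lower of them did from the after libraries, and its change was −1.38 without before replicate 1. Bcl6, a transcriptional repressor of lymphocytes and myeloid cells, went from 5.63 and 6.63 CPM to 14.4 and 15.5 (1.29 ± 0.29).

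The list of cytokines and other genes that NF-kB induces had 12 tested members. Cxcl2, a chemokine that attracts neutrophils, was the only one called (0.333% of all genes were downregulated). It was at 9.31 and 11.6 CPM before and at 4.31 and 1.24 after CMG (−2.02 ± 0.52, with −3.11 without after replicate 1 and −1.28 without after replicate 2). Il1b did not pass the test, with 17.5 and 65.6 CPM before and 42.6 and 56.6 after CMG. Among regulators of mRNA decay, Zfp36l2, which binds AU-rich elements, was downregulated, with 8.06 and 5.98 CPM before and 2.39 and 1.96 after CMG (−1.72 ± 0.33). Zc3h12a, an RNase that degrades cytokine mRNAs (−1.35 ± 0.43, and −2.09 to −0.81 with after replicate 1 or 2 left out), and Tob1, which recruits deadenylases (−1.07 ± 0.34), fell below the fold threshold, while Tob2 rose (1.15 ± 0.38). The related Zfp36, at 68.1 and 51.6 CPM before and 71.5 and 59.4 after CMG, and Zfp36l1, at 20.2 and 16.7 and at 17.6 and 30.8, had overlapping groups.

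Promoters of these genes are shown because several of them fell together and are known targets of NF-kB or STAT proteins. The sequences are the 250 bases upstream of the RefSeq gene start on the GRCr8 assembly, a build other than the rn6 used by the authors for alignment, 5′ to 3′ on the strand of the gene. Capitals mark a kappa B site, the motif that NF-kB binds, in Nfkbia at chr6:78597073-78597322 (minus strand), Nfkbiz at chr11:58251471-58251720 (plus strand) and Cxcl2 at chr14:17467256-17467505 (minus strand), and an interferon activation site (TTC and GAA with 3 bases between), the motif of STAT dimers, in Socs1 at chr10:5389324-5389573 (plus strand).

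Nfkbia: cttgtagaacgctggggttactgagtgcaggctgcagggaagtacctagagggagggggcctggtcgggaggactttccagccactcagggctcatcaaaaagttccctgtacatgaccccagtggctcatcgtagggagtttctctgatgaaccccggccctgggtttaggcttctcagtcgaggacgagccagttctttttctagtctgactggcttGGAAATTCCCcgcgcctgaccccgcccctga

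Nfkbiz: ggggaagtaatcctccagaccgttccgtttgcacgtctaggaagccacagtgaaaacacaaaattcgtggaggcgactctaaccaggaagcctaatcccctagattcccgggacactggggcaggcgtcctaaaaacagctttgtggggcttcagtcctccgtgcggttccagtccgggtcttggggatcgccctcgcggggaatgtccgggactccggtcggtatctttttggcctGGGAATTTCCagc

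Cxcl2: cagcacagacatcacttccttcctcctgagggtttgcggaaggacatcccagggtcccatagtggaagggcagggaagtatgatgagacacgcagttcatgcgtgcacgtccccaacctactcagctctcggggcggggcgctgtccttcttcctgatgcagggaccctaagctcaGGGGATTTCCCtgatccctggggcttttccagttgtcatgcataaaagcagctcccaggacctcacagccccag

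Socs1: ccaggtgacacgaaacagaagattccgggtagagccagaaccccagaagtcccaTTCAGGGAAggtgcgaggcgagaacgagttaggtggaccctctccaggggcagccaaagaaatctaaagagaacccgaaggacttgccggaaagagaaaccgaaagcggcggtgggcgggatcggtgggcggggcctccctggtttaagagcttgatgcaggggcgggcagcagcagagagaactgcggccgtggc

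Nfkbia and Nfkbiz held the same 10 letters, GGGAATTTCC, on opposite strands, at 31 to 22 and at 13 to 4 bases before the start. In Cxcl2 the motif matched at 2 overlapping positions from 74 to 64 bases before the start. Counted on both strands, the kappa B site was in 4 of the 19 downregulated genes with a promoter in the table (Nfkbia, Nfkbiz, Cxcl2 and Socs3), which is 21.1%, against 4.13% of the 5905 tested genes, 3.51% of 57 upregulated genes and 3.52% of all 27457 promoters. The interferon activation site was in 2 of the 19 (10.5%, against 5.89% of those tested), and the CArG box of serum response factor in 1 (Egr1; 5.26% against 1.12%). The AP-1 site (TGANTCA) was also in 1 of the 19 (4.42% of those tested), TGACG, the core of the cAMP response element, in 8 (42.1% against 31.5%), and the E-box CACGTG in 1 (8.81% of those tested). GGTGTGA, a T-box core, was in none of the 19 and in 1.75% of the upregulated genes (2.62% of those tested), and GAGGAAG, a core of PU.1 sites, in 15.8% of the upregulated genes (11.7%). These matches describe the letters of the windows, and the motifs were chosen with the called genes known.

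Txnip was the most abundant called gene. It encodes thioredoxin-interacting protein, which binds thioredoxin, limits glucose uptake and is itself induced by glucose. Its levels were 531 and 426 CPM before and 86.8 and 88.4 after CMG, with 544 to 6788 counts per library (−2.45 ± 0.39, and −2.62 to −2.32 with 1 library left out). The after libraries were almost equal and far below both before libraries. Of the 27 tested genes of the thioredoxin and antioxidant list, Txnip was the only one called (0.333% of all genes were downregulated), and 2 rose at an unadjusted p of at most 0.05 (5.04% of all genes). Nfe2l2, which encodes the antioxidant transcription factor NRF2, rose from 4.22 and 5.17 CPM to 9.90 and 10.1 (1.10 ± 0.29), and Txnrd1, thioredoxin reductase, rose by 0.69 ± 0.29. Thioredoxin, Txn1, lay at 46.5 and 59.2 CPM before and at 52.5 and 32 after CMG.

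Klf9 was the 1 downregulated member among 16 tested genes that glucocorticoids induce (0.333% of all genes). Its levels were 11.2 and 4.37 CPM before and 2.55 and 2.98 after CMG (−1.51 ± 0.45, and −0.68 without before replicate 1). Irs2 and Il1r2, the decoy receptor for IL-1, also fell, so that 3 of the 16 fell at an unadjusted p of at most 0.05 (1.61% of all genes). Il1r2 went from 9.70 and 9.22 CPM to 5.43 and 3.20 (−1.17 ± 0.34). The median of the list was −0.68, and −0.56 to −0.36 with 1 library left out. The best known members did not pass the test: Tsc22d3 was at 63.0 and 87.0 CPM before and at 39.6 and 51.8 after CMG, Per1 at 22.6 and 9.70 and at 11.3 and 7.35, and Fkbp5 at 10.9 and 4.37 and at 15.8 and 6.69.

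Receptors that govern how lymphocytes leave tissue for the blood were lower after CMG in S1pr1 and Cd69. S1pr1, the sphingosine 1-phosphate receptor that draws lymphocytes into the circulation, was at 87.7 and 119 CPM before and at 25.2 and 34.5 after CMG (−1.79 ± 0.36). Cd69, an early activation antigen that binds S1pr1 and takes it off the surface, was at 23.5 and 21.0 CPM before and at 5.43 and 9.02 after CMG (−1.60 ± 0.34). Both after libraries lay below both before libraries in each. S1pr1 and Cd69 were the 2 downregulated genes among 11 tested members of the list (0.333% of all genes), and the other 9 were not called. Klf2, a transcription factor that drives S1pr1, lay at 39.1 and 84.6 CPM before and at 41.2 and 74.7 after CMG, and Ccr7, a receptor for homing to lymph nodes, at 17.8 and 21.0 and at 15.5 and 28.6. Of the T cell list, 2 of 22 tested genes fell (1.61% of all genes), none rose, and in 9 both after libraries lay below both before libraries (17.6% of all genes). Of these 22 tested T cell genes, Cd3g fell from 27.5 and 25.7 CPM to 13.4 and 16.0 (−0.85 ± 0.30) and Cd3d fell by 0.81 ± 0.34 on the log2 scale (by 1.24 without after replicate 2), while Cd3e, at 31.0 and 38.2 CPM before and 21.5 and 27.7 after CMG, and Cd8a, at 24.2 and 25.2 and at 19.0 and 24.6, did not pass the test. Cd4, which monocytes of the rat also carry, had the highest change of the list (0.58 ± 0.38) and did not pass it either. The median of the T cell list was −0.36, and ran from −0.60 to −0.23 with 1 library left out. Relative to the median of all genes it was −0.34, and −0.31 when libraries were scaled to total counts. The part of T cell number in the change of S1pr1 and Cd69 was not tested.

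**Figure D3:**
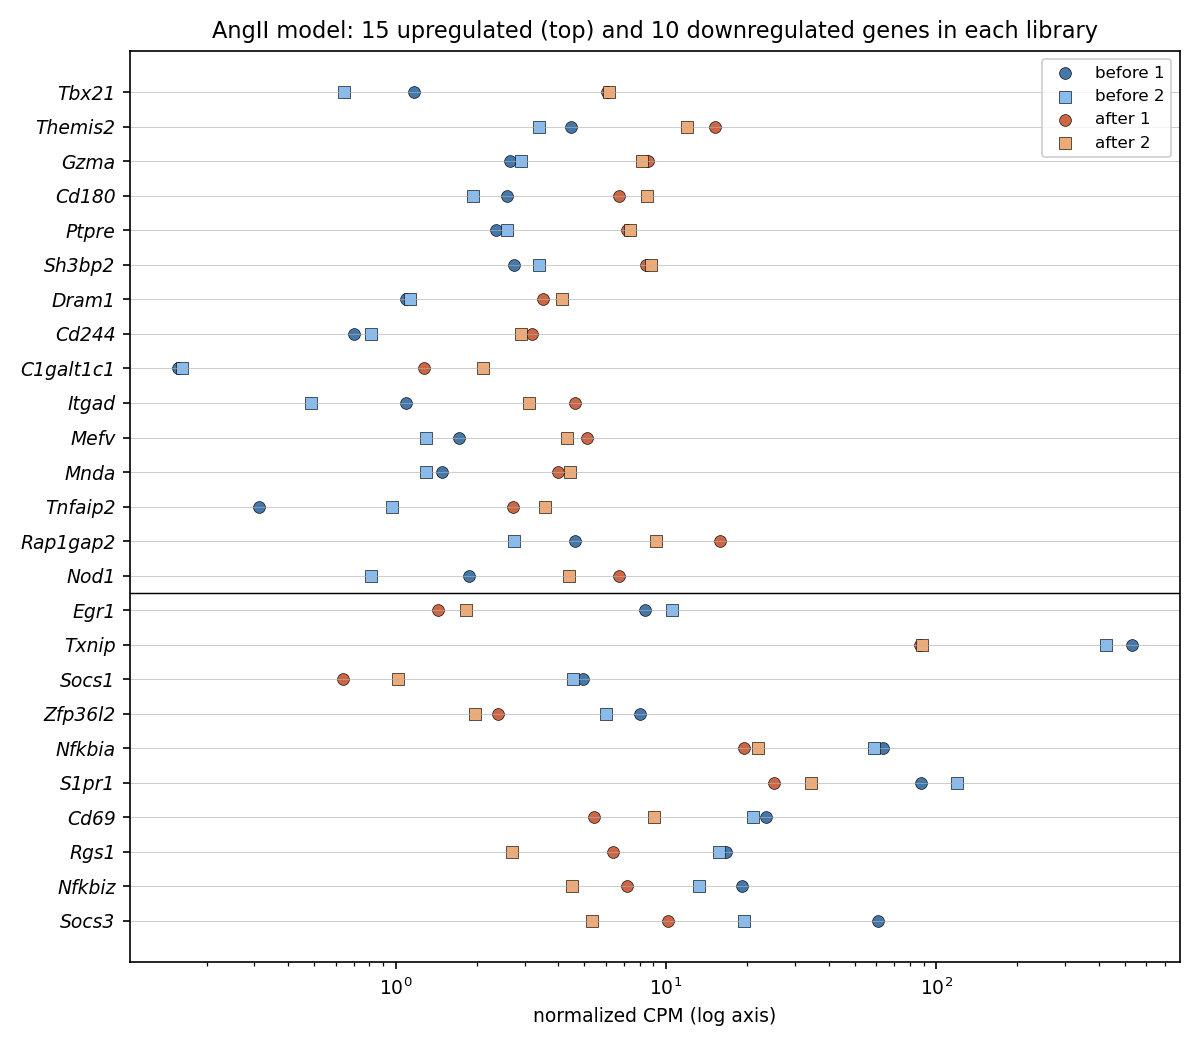
Normalized CPM (log axis) of 15 upregulated and 10 downregulated genes, those of the smallest p, in each of the 4 libraries, before CMG in blue and after it in orange. These genes were chosen among called genes whose groups did not overlap. Txnip lies at 86.8 and 88.4 CPM after against 426 and 531 before CMG, while Socs3 shows a wide gap between its before libraries.

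Cytotoxic lymphocyte genes were among the most changed upregulated groups. Of 19 tested members, 4 were upregulated (Tbx21, Gzma, Cd244 and Klrb1a; 0.903% of all genes), 9 rose at an unadjusted p of at most 0.05 (5.04% of all genes) and none fell. The change of Klrb1a, 1.77 ± 0.68, was 0.89 without before replicate 1 and 2.72 without before replicate 2. The median of the list was 0.87, and 0.49 to 1.06 with 1 library left out. Tbx21, which encodes T-bet, the transcription factor of natural killer and type 1 T cells, was at 1.17 and 0.647 CPM before and at 6.06 and 6.18 after CMG (2.65 ± 0.39, edgeR adjusted p = 0.492). Gzma, the protease granzyme A, was at 2.66 and 2.91 CPM before and at 8.62 and 8.15 after CMG (1.59 ± 0.30). Cd244, a receptor of natural killer cells, went from 0.704 and 0.808 CPM to 3.19 and 2.91, or from 9 and 5 counts to 20 and 40 (2.01 ± 0.45). In all 3 the after libraries were close to each other and well above the before libraries.

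Below the fold threshold, Prf1, the pore protein perforin, rose from 15.8 and 12.4 CPM to 35.9 and 29.0 (1.19 ± 0.31). Il2rb, a chain of the receptors for IL-2 and IL-15, rose from 11.3 and 12.6 CPM to 25.1 and 21.3 (0.95 ± 0.30), Gzmk from 6.57 and 5.34 to 10.9 and 11.1 (0.87 ± 0.29), and Ncr1, which encodes NKp46, from 1.25 and 1.46 to 3.35 and 2.76 (1.17 ± 0.40). The summed defining markers of cytotoxic lymphocytes, which include Tbx21, Gzma and Prf1, were higher after CMG as well, and the sum was not tested. The other markers did not pass the test. Klrd1 was at 5.16 and 6.95 CPM before and at 5.11 and 7.49 after CMG, and Nkg7 at 5.71 and 7.92 and at 13.6 and 8.87. Over the list, 17 of the 19 members were above 0, and Ctsw was the lowest (−0.50). The part of cytotoxic lymphocyte number in these changes was not tested.

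Pattern recognition receptors and their adaptors detect microbial and damage molecules in monocytes and neutrophils. Of 30 tested members of this list, 6 were upregulated (Cd180, Nod1, Tlr8, Nod2, Card9 and Tlr6; 0.903% of all genes), 13 rose at an unadjusted p of at most 0.05 (5.04% of all genes) and none fell, with a median of 0.57, and 0.38 to 0.62 with 1 library left out. The other members did not pass the test, and 24 of the 30 were above 0. Traf6 had the lowest change of the list (−0.97). Cd14 was also below 0 (−0.89), at 3.13 and 1.78 CPM before and at 0.479 and 1.96 after CMG. The theme is one that the study drew from these libraries, so the counts are not independent evidence of a direction. Cd180, a Toll-like receptor homolog of B cells and myeloid cells, was at 2.58 and 1.94 CPM before and at 6.70 and 8.51 after CMG (1.73 ± 0.33). Nod1, a cytosolic sensor of peptidoglycan, was at 1.88 and 0.808 CPM before and at 6.70 and 4.36 after CMG (1.90 ± 0.45). Nod2, its paralog, went from 1.56 and 0.808 CPM to 3.67 and 3.85 (1.57 ± 0.42).

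The endosomal RNA sensor Tlr8 went from 3.44 and 1.13 CPM to 9.58 and 6.98 (1.74 ± 0.46, and 2.81 without before replicate 1). Tlr6, which pairs with Tlr2, went from 0.626 and 0.323 CPM to 2.39 and 1.53, on 8, 2, 15 and 21 counts (1.87 ± 0.62). Card9, the adaptor of fungal C-type lectin receptors, went from 1.02 and 0.970 CPM to 2.07 and 3.71 (1.57 ± 0.47, and 1.03 without after replicate 2), and its after libraries differed more than its before libraries. Tlr2 (0.88 ± 0.34), Tlr7 (1.24 ± 0.52), Ddx58, which encodes RIG-I (1.34 ± 0.46), Clec4e (0.81 ± 0.29) and Irak4 (0.92 ± 0.38) rose below the fold threshold. Without before replicate 1 and without before replicate 2, the change of Tlr2 was 1.33 and 0.56, and that of Tlr7 was 2.67 and 0.67.

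Genes of the inflammasome and of the IL-1 family were next to them. Of 14 tested members, 1 was upregulated (0.903% of all genes), 5 rose at an unadjusted p of at most 0.05 (5.04%) and 1 fell (1.61%). Mefv, which encodes the sensor pyrin, was the upregulated member, from 1.72 and 1.29 CPM to 5.11 and 4.29 (1.59 ± 0.36). Nlrp3 rose from 3.99 and 7.11 CPM to 11.8 and 12.6 (1.17 ± 0.35, and 0.74 without before replicate 1), and Nlrc4 (1.26 ± 0.41), Nlrp1a (0.76 ± 0.31) and Nlrp12 (0.70 ± 0.30) rose as well. The 1 member that fell was Il1r2, given above. Of the NADPH oxidase subunits, which make the superoxide burst of phagocytes, 8 were tested and Cybb alone rose at the unadjusted p (5.04% of all genes). Cybb went from 8.06 and 4.37 CPM to 12.9 and 10.9 (0.91 ± 0.36, with 1.41 without before replicate 1 and 0.54 without before replicate 2).

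Part of the monocyte genes rose as well. Of 22 tested members, 1 was upregulated (Clec4a3, at 1.65 ± 0.51, and 2.73 without before replicate 1; 0.903% of all genes), 9 rose at an unadjusted p of at most 0.05 (5.04% of all genes) and none fell, with a median of 0.66. Csf1r, the receptor for the growth factor of monocytes, rose from 41.2 and 17.3 CPM to 82.4 and 52.9 (1.20 ± 0.46, with 1.93 without before replicate 1, 0.69 without before replicate 2 and 0.79 without after replicate 1), and Spn, which encodes the sialoglycoprotein CD43, rose from 27.7 and 23.6 CPM to 60.5 and 59.1 (1.22 ± 0.31). Spi1, the myeloid transcription factor PU.1, rose from 13.5 and 17.3 CPM to 29.2 and 26.4 (0.85 ± 0.30). The monocyte marker Cd14 had 40, 11, 3 and 27 counts, with no such pattern. Of 16 tested genes of Fc receptors, complement receptors and soluble complement, 6 rose (5.04% of all genes) and none was called. Among those that rose were Cfp and C3, which encode soluble complement proteins. Fcgr3a, an IgG receptor, rose from 7.82 and 3.23 CPM to 16.3 and 11.7 (1.29 ± 0.43). Its change was 2.07 without before replicate 1 and 0.81 without before replicate 2. Itgam, a chain of complement receptor 3, rose from 9.54 and 5.98 CPM to 17.1 and 18.8 (1.19 ± 0.33). Of 18 neutrophil genes, only Ptafr, the receptor for platelet-activating factor, rose (5.04% of all genes), from 6.26 and 6.31 CPM to 14 in both after libraries (1.16 ± 0.29). The part of monocyte number in the change of the innate sensors was not tested.

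Among upregulated genes in the order of their p were several that act in leukocyte signalling. Themis2, an adaptor of B cell and myeloid receptor signalling, was at 4.46 and 3.40 CPM before and at 15.2 and 11.9 after CMG (1.76 ± 0.32). Ptpre, a receptor tyrosine phosphatase, was at 2.35 and 2.59 CPM before and at 7.18 and 7.35 after CMG (1.56 ± 0.30). Sh3bp2, an adaptor that binds SYK and ABL kinases, was at 2.74 and 3.40 CPM before and at 8.46 and 8.80 after CMG (1.51 ± 0.30). The after libraries of Ptpre and Sh3bp2 were within a few percent of each other. Rap1gap2, which switches off the GTPase RAP1, was at 4.61 and 2.75 CPM before and at 15.8 and 9.16 after CMG (1.71 ± 0.40).

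Of 20 tested leukocyte tyrosine kinases, 5 rose at an unadjusted p of at most 0.05 (5.04% of all genes) without being called. Fes, a kinase of myeloid cells, rose from 6.10 and 5.66 CPM to 16.9 and 15.9 (1.47 ± 0.29), just under the fold threshold. The SRC family kinases Fgr (0.98 ± 0.30) and Lyn (0.81 ± 0.30) and the focal adhesion family kinase Ptk2b (0.78 ± 0.31) rose by less. The median over the kinases was 0.19, and 0.19 to 0.29 with 1 library left out. Over 17 tyrosine phosphatases it was −0.05, and changed sign, from −0.13 to 0.37, with 1 library left out.

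The other upregulated genes of the smallest p have varied roles. Dram1, a lysosomal membrane protein of autophagy, was at 1.09 and 1.13 CPM before and at 3.51 and 4.15 after CMG (1.79 ± 0.39). Mnda, a myeloid nuclear antigen of the interferon-inducible family, was at 1.49 and 1.29 CPM before and at 3.99 and 4.44 after CMG (1.58 ± 0.36). Tnfaip2, which TNF induces, was at 0.313 and 0.970 CPM before and at 2.71 and 3.56 after CMG, on 4, 6, 17 and 49 counts (2.48 ± 0.58). The integrin subunit Itgad was at 1.09 and 0.485 CPM before and at 4.63 and 3.13 after CMG (2.13 ± 0.48). C1galt1c1, the chaperone COSMC of the enzyme that extends O-glycans, had 2 and 1 counts before and 8 and 29 after CMG, a ratio of 11.7 with a counting interval of 3.70 to 59.3.

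Chemokine receptors had a median of 1.10 over 10 tested members, and of 0.56 to 1.36 with 1 library left out. Of the 10, 3 were upregulated (0.903% of all genes), among them Cxcr5 and Cxcr6 on few counts. Cxcr5, the receptor that guides B cells and helper T cells to follicles, had 7 and 2 counts before and 8 and 39 after CMG (2.19 ± 0.65), and Cxcr6, a receptor of tissue-homing lymphocytes, had 3 and 0 counts before and 10 and 17 after CMG, a ratio of 8.53 with a counting interval of 2.63 to 43.9. Cxcr2, the receptor for Cxcl2 on neutrophils, rose from 4.61 and 5.34 CPM to 8.62 and 8.22 (0.76 ± 0.29). The most abundant member, Cxcr4, lay at 65.4 and 108 CPM before and at 54.4 and 52.1 after CMG (−0.70 ± 0.36).

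**Figure D4:**
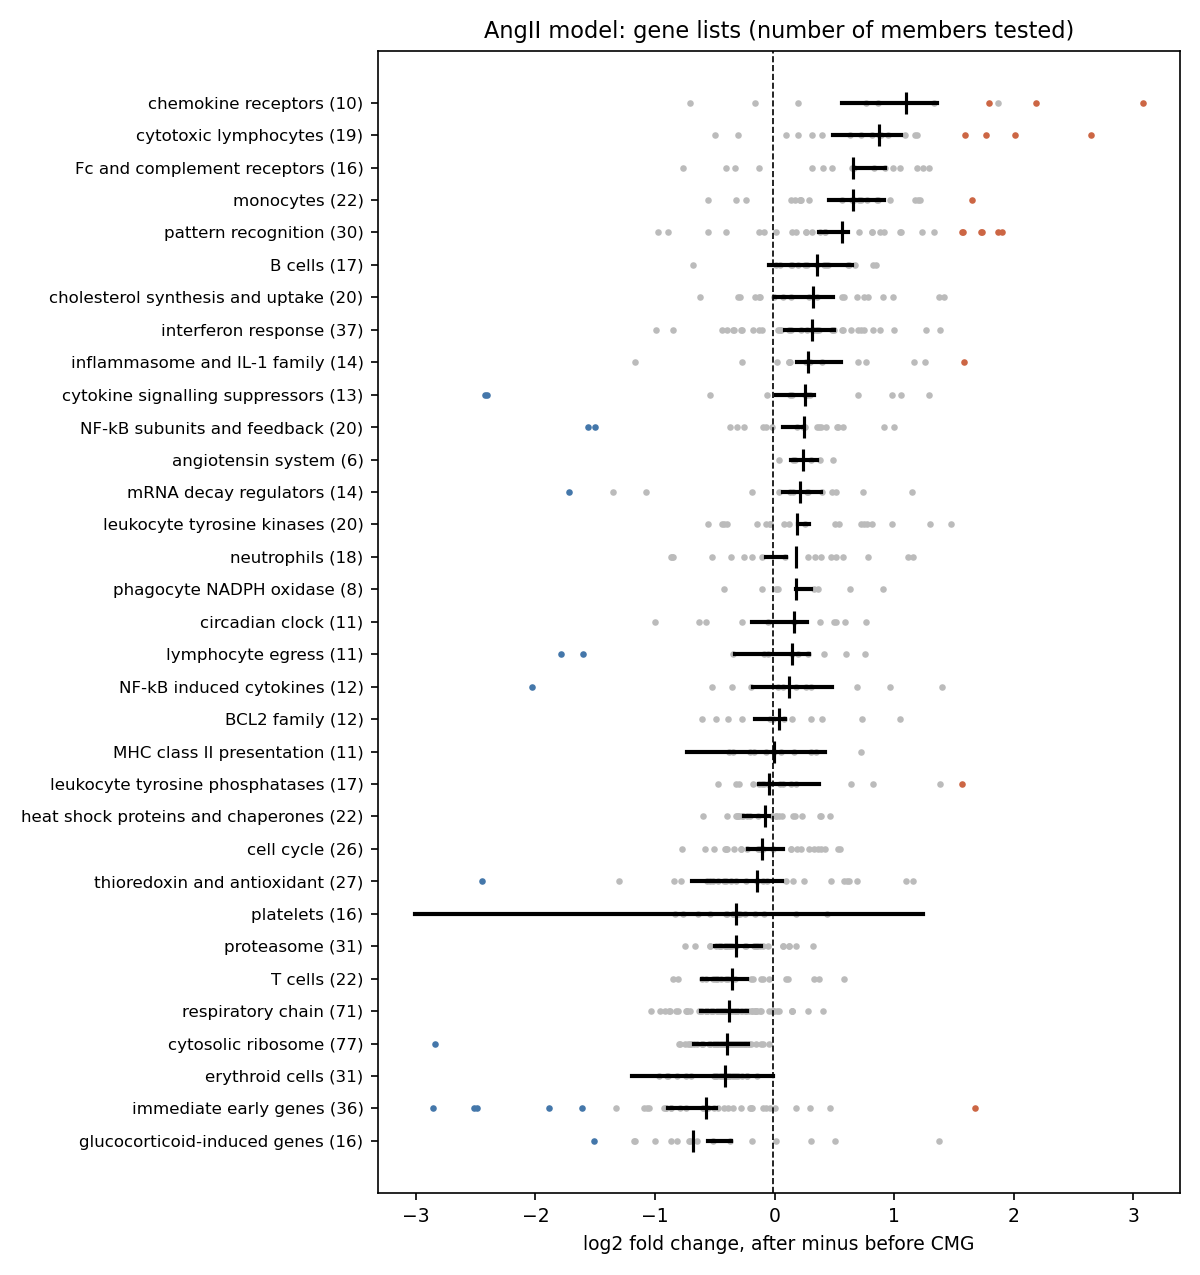
Log2 fold change after minus before CMG of the members of each pathway and cell type list with at least 6 members tested (grey dots not called, orange upregulated, blue downregulated), with the median as a vertical tick and the range of the median with 1 library left out as a black bar. The dashed line marks the median of all genes, −0.01. The list of genes that the study names is not drawn. Chemokine receptors have a median of 1.10 and glucocorticoid-induced genes of −0.68, and the bar of the platelet list spans −3.01 to 1.24.

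Genes of the cytosolic ribosome and the respiratory chain had medians below 0. All 77 tested genes of the cytosolic ribosome had a log2 fold change below 0, with a median of −0.40, and both after libraries lay below both before libraries in 54 of them, against 17.6% of all genes. Only 3 fell at the unadjusted p (1.61% of all genes), and 51 of the 77 were above 100 CPM, where the median of all genes was also −0.40. The median was −0.17 and −0.25 for after replicate 1 against each before library and −0.59 and −0.65 for after replicate 2, and, relative to the median of all genes, it was −0.39, and −0.43 when libraries were scaled to total counts. Rplp2 was the 1 called member (0.333% of all genes were downregulated), with 1.80 and 23.1 CPM before and 2.39 and 1.16 after CMG. Its change of −2.84 ± 1.03 was −0.12 without before replicate 2. Ribosomal genes share reads with pseudogenes, among which the counting could split them.

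Of 71 tested respiratory chain genes, 8 fell at an unadjusted p of at most 0.05 (1.61% of all genes) and none rose (5.04%), with a median of −0.38. This median ran from −0.62 to −0.23 with 1 library left out. It was −0.15 and −0.34 for after replicate 1 against each before library, and −0.45 and −0.64 for after replicate 2. Ndufa4, a subunit associated with complex IV, fell from 10.9 and 12.4 CPM to 6.70 and 4.80 (−1.03 ± 0.31), and Cox7c, another subunit of complex IV, from 9.70 and 8.41 CPM to 4.63 and 4.95 (−0.92 ± 0.29). The median level of the 71 was 10.3 CPM, and 5 were above 100 CPM. Relative to the median of all genes, the list was at −0.37, and at −0.39 when scaled to total counts, and 31 proteasome genes were at −0.31 and −0.24. All 31 tested erythroid genes lay below 0, with a median of −0.41, but none passed the test, and the median was −0.02 at the nearest to 0 with 1 library left out. After replicate 1 gave medians of 0.01 and 0.08 against the before libraries and after replicate 2 gave −1.19 and −1.06. The lower erythroid median thus came mainly from after replicate 2.

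Other groups gave few or no calls. Of 37 interferon response genes, 5 rose (5.04% of all genes) without being called, among them Ifi47, an interferon-inducible GTPase, from 3.91 and 2.91 CPM to 9.10 and 7.71 (1.27 ± 0.31), and Irgm (1.39 ± 0.39). The 11 tested genes of MHC class II presentation had a median of −0.01, which ran from −0.73 without after replicate 2 to 0.42 without before replicate 2, and no member passed the test. In the list of 20 cholesterol synthesis and uptake genes, none was called and 2 rose (5.04% of all genes), among them Srebf1, a transcription factor of lipid synthesis (0.91 ± 0.31). Of the clock genes, Cry2 rose (0.76 ± 0.32) and Cry1 fell (−0.996 ± 0.39). Of 21 genes of the angiotensin system, 6 had enough counts, none passed the test, and the median was 0.24 (0.13 to 0.36 with 1 library left out). Kdr, the VEGF receptor of endothelium, was upregulated on 5 and 0 counts before and 9 and 19 after CMG (2.43 ± 0.88), so that without before replicate 1 no count was left before CMG. The other 3 tested members of the endothelium list did not pass the test (Tie1 0.54 ± 0.42, Vwf −0.03 ± 0.75, Esam −0.32 ± 1.34), and the 11 genes of the list, Kdr among them, summed to 43.4 and 15.4 CPM before and to 50.4 and 14 after CMG.

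The DOCA–HS model gave the same contrast in other rats, with no library shared. Its after replicate 2 stood apart, with 4149104 counts, 84.3% of them on hemoglobin genes, and a TMM factor of 0.336, so changes in that model are given with and without it. Of the 65 genes upregulated in the AngII model, 59 were tested in the DOCA–HS model, where 42 had a log2 fold change above 0, against 47.2% of all genes tested in both models, and 2 (Gzma and Tnfaip2) met the criterion there too. Without DOCA–HS after replicate 2, 51 of 63 were above 0 (all genes, 49.0%). Of the 24 downregulated genes, 23 were tested, 16 were below 0, against 52.8% of all genes tested in both models, and 4 (Egr1, Txnip, Jun and Fosb) met the criterion. Without that library, 16 of 24 were below 0 (all genes, 51.0%).

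The genes that met the criterion in both models were chosen for that, so their like changes are a description. Txnip was at 246 and 258 CPM before and at 58.6 and 40.1 after CMG in the DOCA–HS model, a log2 fold change of −2.34 (−2.09 without after replicate 2), and the difference between the models (AngII minus DOCA–HS) was −0.12 ± 0.61. Jun was at 28.3 and 12.5 CPM before and at 7.17 and 4.30 after CMG there (−1.74, −1.5 without after replicate 2, difference 0.10 ± 0.71). Its change there ran from −2.26 to −1.07 with 1 DOCA–HS library left out. Egr1 was at 22.1 and 2.69 CPM before and at 1.79 and 1.43 after CMG, and its change of −2.87 (−2.81 without after replicate 2, difference 0.35 ± 1.15) ran from −3.68 to −0.68 with 1 DOCA–HS library left out. Fosb was at 10.2 and 1.51 CPM before and at 0.702 and 0.717 after CMG (−3.07, −3.11 without after replicate 2, difference 0.18 ± 1.62). Its change there ran from −3.81 to −1.08 with 1 DOCA–HS library left out. Gzma was at 0.901 and 2.37 CPM before and at 5.07 and 7.17 after CMG (1.88, 1.76 without after replicate 2, difference −0.31 ± 0.65). None of these differences passed the test, which does not show that the models are alike.

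The number of genes that differed between the models depended on the setting. In the main edgeR fit the difference, AngII minus DOCA–HS, had an unadjusted p of at most 0.05 in 299 of 7994 genes (3.74%). No gene reached an adjusted p under 0.05 in this fit, where the lowest was 0.881. Scaling to total counts gave 34 genes at the unadjusted p, and the other settings, given at the end, moved the count widely. In the main fit, 16 of the 65 upregulated and 5 of the 24 downregulated genes had a difference at the unadjusted p. These genes had been chosen on the AngII change that enters the difference. Nfkbia was at 24.1 and 23.1 CPM before and at 17.5 and 25.8 after CMG in the DOCA–HS model, a change of −0.15 (−0.42 without after replicate 2), and the difference was −1.42 ± 0.53 at an unadjusted p of at most 0.05. Its level before CMG was thus lower in the DOCA–HS model than in the AngII model, and its levels after CMG were close, though levels of separate fits are only roughly comparable. Sh3bp2 was at 8.22 and 6.35 CPM before and at 8.11 and 5.02 after CMG there (−0.07, 0.15 without after replicate 2, difference 1.54 ± 0.53), which is near the level of the AngII libraries after CMG. Tbx21 was at 1.46 and 2.37 CPM before and at 2.57 and 6.45 after CMG (0.96, 0.49 without after replicate 2, difference 1.69 ± 0.74).

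For the lists, the DOCA–HS values depended on its after replicate 2. The pattern recognition list had a median of 0.03 in the DOCA–HS model, and 0.30 without that library, against 0.57 in the AngII model. No member had a difference at an unadjusted p of at most 0.05, and 1 had it without that library. Cytotoxic lymphocyte genes had a median of 0.60, and 0.49 without it, against 0.87. Respiratory chain genes had a median of 0.66 against −0.38, with 15 of 71 members at a difference p of at most 0.05 (3.74% of all genes). That count came with DOCA–HS after replicate 2 included, and the median was −0.11 without that library. The cytosolic ribosome went the same way, from 0.59 to −0.09 without it.

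**Figure D5:**
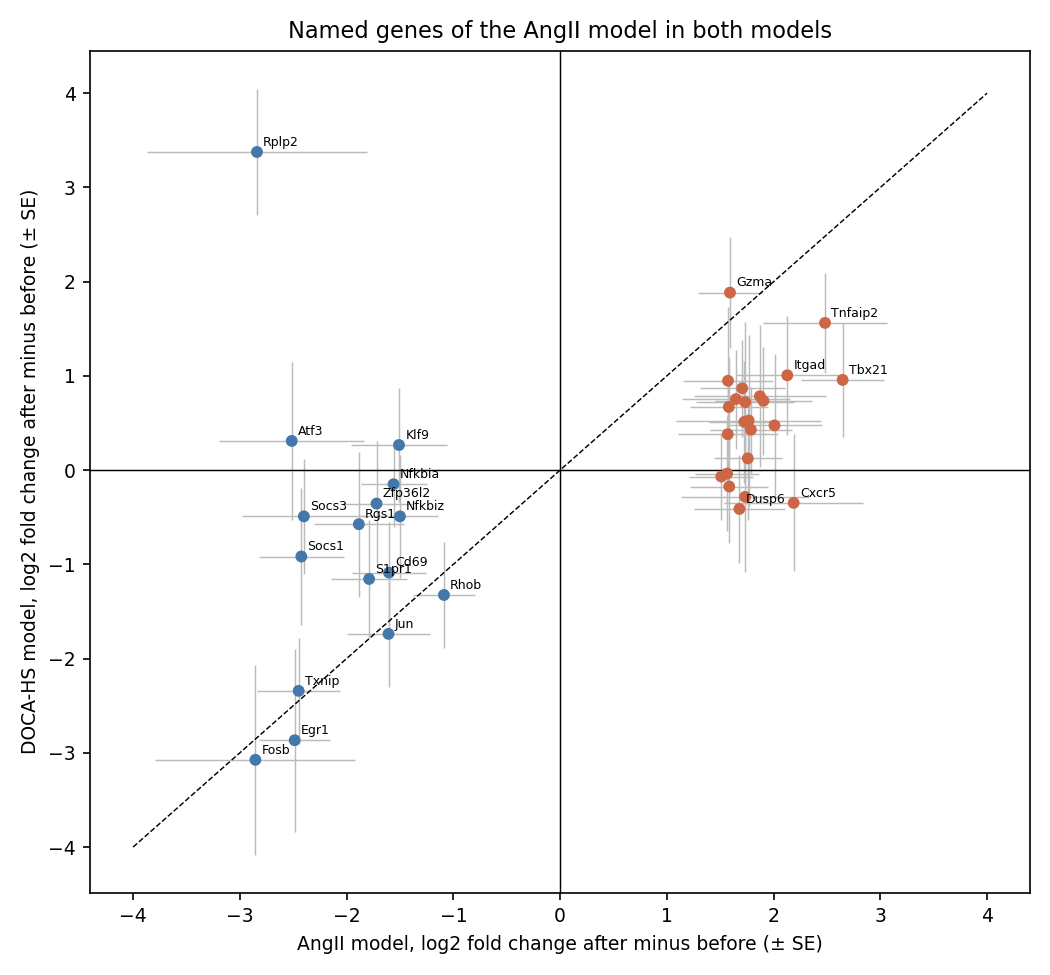
Log2 fold change after minus before CMG of the named genes in the AngII model (horizontal axis) and in the DOCA–HS model (vertical axis), each with its SE, with orange for genes above 0 and blue for genes below 0 in the AngII model and the dashed line for equal change. Txnip, Jun, Egr1, Fosb and Gzma lie near the line. The change of Fosb rested largely on 1 before library in each model, as did the DOCA–HS change of Egr1. Nfkbia, Atf3 and Socs3 lie far from the line, as does Rplp2, whose AngII change rested on 1 library.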

How the data were processed

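Gene expression was measured by RNA-seq of whole blood, taken by cardiac puncture into heparin per the labels. The authors aligned single-end reads to rn6 with HISAT2 and counted them per gene and strand with HTSeq, and deposited these counts without normalization. They state that hemoglobin annotations were removed, while Hbb is among the deposited counts. The 4 AngII libraries were fitted alone in edgeR 4.0.16 with R 4.3.3 (filterByExpr, TMM, quasi-likelihood test, Benjamini-Hochberg adjustment), and all 8 with 4 group means for the difference between the models. The SE is the log2 fold change over the root of the F statistic. Where the text counts libraries left out, the fit was repeated without each.

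The members and gene lists were chosen with earlier results of these data known. The genes named were 15 upregulated and 10 downregulated genes of the smallest p, out of the called genes whose mean was 10 counts or more and whose groups did not overlap, called genes beyond 3 on the log2 scale, the genes that the study names for blood, the defining markers, and of each list described the members called, those at an unadjusted p of at most 0.05 and up to 4 abundant others; members at such a p that are not named are in the counts, and a few members are not reported here. Genes given as a contrast were added after their values were seen. Of 1027 list entries, 961 matched the count table. Of 17446 gene names, 17098 matched a RefSeq symbol or synonym. A group with 1 to 3 counts is given as a ratio of normalized counts with an exact 95% interval, which covers counting error only. The fit was tested on simulated counts. Alternatives were DESeq2 1.42.0, its size factors, total counts with and without hemoglobin genes, limma-voom 3.58.1, other filters, all 8 libraries in 1 fit, a fold threshold of 1, the replicate number as a block, and each library left out.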

Additional observations from a re-analysis of the deposited data

Results flagged for a closer look

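For 11 of the genes named in the report, the AngII and DOCA–HS changes differed (unadjusted p of at most 0.05), with an adjusted p of 0.881 or above in each. As differences of log2 fold changes (AngII minus DOCA–HS), these were 1.69 for Tbx21, 1.54 for Sh3bp2, 1.34 for Dram1, 3.59 for C1galt1c1, 1.73 for Mefv, 2.54 for Cxcr5, 3.15 for Cxcr6, 2.06 for Dusp6, −1.42 for Nfkbia, −2.86 for Atf3 and −6.29 for Rplp2. Without DOCA–HS after replicate 2, the library with 84.3% of its counts on hemoglobin genes, they were 2.16 for Tbx21, 1.34 for Sh3bp2, 1.26 for Dram1, 3.58 for C1galt1c1, 1.53 for Mefv, 2.22 for Cxcr5, 2.90 for Cxcr6, 1.59 for Dusp6, −1.16 for Nfkbia, −2.73 for Atf3 and −6.78 for Rplp2. All but Mefv kept an unadjusted p of at most 0.05. Rplp2 had 23, 143, 15 and 16 counts in the AngII libraries, so its AngII change rests on before replicate 2, while in the DOCA–HS model it rose by 3.38 (2.03 to 3.93 with 1 library left out). C1galt1c1 and Cxcr6 were too low to be tested in the DOCA–HS model alone. The genes were called on the AngII change, which enters each difference.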

How the results depend on the processing

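The 43 genes chosen by the rule for named genes, nearly all of them called, gave 532 values under the alternatives, of which 463 kept their side of the threshold, 69 no longer passed it and 0 changed sign. These counts do not cover the other genes with values in the text, of which Fos, for one, did not pass the test and ran from −0.69 to 0.12 with 1 library left out. Nearly all of the 43 genes had groups that did not overlap, so their sign with 1 library left out was close to fixed in advance. Counts of calls and some list medians moved. Of 468 list medians, 127 moved by more than the spread. Scaled to total counts, 210 genes were upregulated and 12 downregulated (94.6% higher, against 73.0%), 4 with an adjusted p under 0.05. Scaled to total counts outside hemoglobin these were 225, 13 and 4. Without a filter, 134 and 67 were called, 778 had an unadjusted p of at most 0.05 and 51 an adjusted p under 0.05. With at least 10 counts in every library, 11 and 11 were called. At a fold threshold of 1, 217 and 54 were called. DESeq2 gave 165 genes at the unadjusted and 3 at the adjusted p, and all 8 libraries in 1 fit gave 296 at the unadjusted p.

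With 1 library left out, 66 to 181 genes were upregulated and 33 to 305 downregulated, with 342 to 1386 at the unadjusted and 1 to 281 at the adjusted p, the highest without after replicate 1 (98 upregulated, 305 downregulated); the cause was not tested. The lone sample of a group was then assumed to vary like the other group. The replicate numbers share only a number, and same-numbered deviations correlated at 0.48 over 2 pairs. With the replicate number as a block, 82 and 23 genes were called, 982 at the unadjusted p and, unlike in the fit without it, 165 at the adjusted p. Between the models, 34 genes differed at the unadjusted p under total counts, 659 with the block (5 at the adjusted p) and 78 to 2266 with 1 library left out, the highest without DOCA–HS after replicate 1 (147 at the adjusted p, 0 in the other such fits). Depth limited the low genes: 3 counts, the floor of a library, were 0.218 to 0.485 CPM.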

Other observations

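Of the 89 called genes, 35 were members of a list. Among the others, and chosen after their values were seen, Runx2, a transcription factor of bone that is also active in plasmacytoid dendritic cells, had 13 and 1 counts before and 28 and 31 after CMG (2.21 ± 0.67, and 4.18 without before replicate 1). Slamf1, a receptor of activated lymphocytes, had 5 and 4 counts before and 11 and 18 after CMG (1.59 ± 0.65). Phlda1, which growth factors induce, was downregulated, with 24 and 15 counts before and 3 and 8 after CMG (−1.94 ± 0.55).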
